A study of Mus musculus with 9 samples.

Results

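The Hox genes and their cofactors were examined as a group of 9 genes, read by symbol from a table of 54347 mouse genes. The members were *Hoxb8*, *Hoxa7*, *Hoxa9* and *Hoxa10* among the Hox genes, and *Meis1*, *Pbx2*, *Pbx3*, *Pbx4* and *Pknox1* among the cofactors. Of the 9, 6 had enough counts to be tested between lines, and *Hoxa7*, *Hoxa9* and *Hoxa10* did not.

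The data are poly-A RNA libraries of 3 mouse myeloid lines, 3 libraries of each. Hox-WT (genotype WT) and Hox-URE (genotype UREd/d) are hematopoietic progenitor lines, each made from lineage-negative c-Kit+ bone marrow cells that were immortalized with a fusion of Hoxb8 to the estrogen receptor (ER). URE-AML (B22 in the labels, genotype UREd/d) is a blast-like line from an acute myeloid leukemia (AML) that arose in a mouse with the deletion. UREd/d removes an enhancer of *Spi1*, the upstream regulatory element (URE), and *Spi1* encodes the transcription factor PU.1. All 3 lines were kept in IMDM with fetal calf serum, IL-3, IL-6, SCF and β-estradiol, so that the growth conditions were shared. Each genotype and stage was 1 line. The labels do not say whether libraries are from separate cultures, so the errors and p-values describe the spread between libraries, which may be technical.

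Hox proteins bind DNA through a homeodomain, and in blood progenitors they favor self-renewal over differentiation. Most of them bind as complexes with cofactors of the TALE homeodomain class. The Pbx proteins bind next to Hox proteins, and the Meis and Pknox proteins bind Pbx, keep it in the nucleus and contact DNA themselves. *Hoxa9* and *Meis1* are the pair best known from acute myeloid leukemia, above all in leukemias with rearranged *Kmt2a* (MLL), where *Pbx3* is a frequent partner. Forced *Hoxb8* blocks myeloid differentiation in culture, which is why a Hoxb8-ER fusion can hold progenitors in a growing state while estradiol is present.

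The lines differed first in *Hoxb8*, *Meis1* and *Pbx4*. All 3 were measured in both Hox lines and stood at 0 or 1 counts in every URE-AML library. The sequence upstream of these genes is shown because they were the members measured in the Hox lines and nearly or wholly without counts in the leukemic line. The windows were taken from RefSeq on GRCm38.p6, run 5′ to 3′ on the strand of the gene, and were ended before the first transcript start of GENCODE M21. Capitals mark matches to any of the motifs named after them. The *Hoxb8* window is that of the gene at its own locus, and counts of *Hoxb8* in the Hox lines may come from the introduced fusion rather than from this locus.
Hoxb8, chr11:96281655-96281904, plus strand: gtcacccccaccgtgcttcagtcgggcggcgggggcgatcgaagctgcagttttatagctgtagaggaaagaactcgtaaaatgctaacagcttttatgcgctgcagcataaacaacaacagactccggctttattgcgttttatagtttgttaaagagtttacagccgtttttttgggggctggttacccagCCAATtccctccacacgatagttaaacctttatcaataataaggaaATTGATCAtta
Meis1, chr11:19018986-19019219, minus strand: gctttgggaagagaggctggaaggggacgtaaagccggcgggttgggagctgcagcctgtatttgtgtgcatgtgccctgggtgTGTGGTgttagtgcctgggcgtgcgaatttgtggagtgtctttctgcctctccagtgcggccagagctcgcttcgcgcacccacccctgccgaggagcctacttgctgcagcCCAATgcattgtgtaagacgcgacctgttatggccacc
Pbx4, chr8:69832374-69832490, plus strand: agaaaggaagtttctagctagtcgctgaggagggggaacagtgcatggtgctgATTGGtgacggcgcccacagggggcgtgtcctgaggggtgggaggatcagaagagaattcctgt

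The motifs were searched on both strands of the 250 bases upstream of the RefSeq start, in 27025 mouse promoters and in the 7 members that had an entry. A Hox-Pbx motif (TGATNNAT), held by 7.92% of all promoters, had 1 match upstream of *Hoxb8*, near the 3′ end of the window, and none upstream of the other members. The Meis motif (TGACAG), held by 16.0% of promoters, had no match in any member. The PU.1 motif (GAGGAAG, 10.4% of promoters) had 1 match upstream of *Hoxa9* and 1 upstream of *Pbx2*, and none in the windows printed. The RUNX motif (TGTGGT, 14.2%) had 1 match, upstream of *Meis1*. The CCAAT motif (34.2%) had 1 match upstream of *Hoxb8*, 1 upstream of *Meis1*, 2 upstream of *Pbx4*, of which 1 lies in the printed window, and 1 in a promoter of *Hoxa10*. The 3 genes therefore held no other of these motifs in common, and a match or its lack says nothing of what binds there. The GC content of the 250 bases was 44.4% for *Hoxb8*, 59.6% for *Meis1* and 55.6% for *Pbx4*, against a median of 52% over all promoters. The same 250 bases, which run past the printed windows of *Meis1* and *Pbx4*, held 12, 13 and 12 CpG, against a median of 5.

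Total counts were 20331064 to 28588718 per library, and 3 counts corresponded to 0.104 to 0.153 CPM (counts scaled to library size and TMM factor). A value of 0 allows a level up to that floor, for counting error only. *Spi1* checked the labels: Hox-WT had 2791 to 2932 counts, Hox-URE 0 or 1 and URE-AML 62 to 148, with a log2 fold change of -4.42 ± 0.28 against Hox-WT (SE, adjusted p = 4.53e-07). Of 7 myeloid progenitor markers, all were over 3 counts in some library of both Hox lines, and 6 were in URE-AML, where *Cd34* had at most 1 count. They summed to 7555 to 10965 CPM for Hox-WT, 4017 to 5713 for Hox-URE and 7653 to 17562 for URE-AML. Markers of other cell types (16 genes) summed to 376 to 737 CPM for Hox-WT, 831 to 4611 for Hox-URE and 26.0 to 62.3 for URE-AML. T cell *Cd3e* and *Cd3g* were at 0 in all lines. Most of the sum in Hox-URE was mast cell *Cpa3*, at 2665 ± 1838 CPM (SD, n = 3). The part of these markers in the results on Hox genes was not tested.

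In this bulk RNA, fewer cells that express a gene and less RNA per cell cannot be told apart. The *Hoxb8* gene (ENSMUSG00000056648, GRCm38 chromosome 11, 96281905 to 96285315, plus strand) was the highest member in both Hox lines. Its level was 66.0, 61.6 and 69.7 CPM in the Hox-WT libraries, 127, 141 and 128 in Hox-URE, and 0 in all 3 of URE-AML. The 3 lines did not overlap. Hox-URE had 2.01-fold the *Hoxb8* of Hox-WT (log2 fold change 1.00 ± 0.10, SE, adjusted p = 5.54e-05). URE-AML was at least 461-fold lower in *Hoxb8* against Hox-WT (adjusted p = 3.44e-09) and at least 924-fold lower against Hox-URE (3.42e-09), taking 3 counts per library as the floor. The counts per gene do not separate reads of the introduced fusion from reads of the gene at its own locus. The fusion was described for the Hox lines and not for URE-AML. The difference between the Hox lines and the lack of *Hoxb8* in URE-AML may therefore lie in either source, which cannot be told apart here, and the same holds for *Hoxb8* in the counts and medians over the members.

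**Figure D1:**
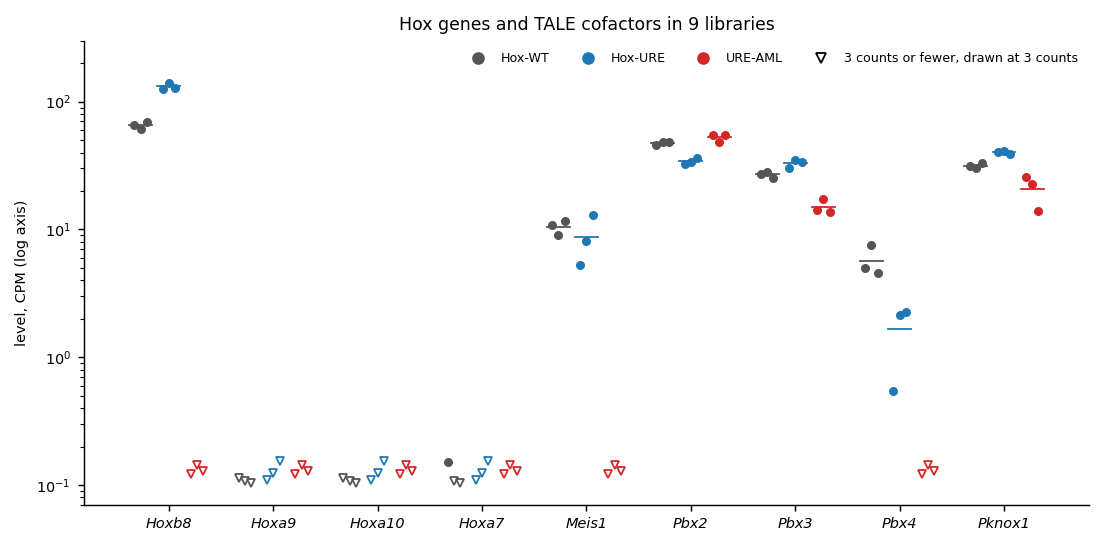
Levels of the 9 members in each library, in CPM on a log axis; bars are means of lines with over 3 counts in every library, and open triangles are libraries with 3 counts or fewer, drawn at that floor. *Hoxb8*, *Meis1* and *Pbx4* are at the floor in URE-AML alone, *Hoxa9* and *Hoxa10* in all lines, and *Pbx2*, *Pbx3* and *Pknox1* stand well above it everywhere.

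Nearly all Hox counts in the Hox lines, which may include reads of the introduced fusion, were of *Hoxb8*. It made up 95.4% (95% Wilson interval 94.4 to 96.3), 95.1% (94.0 to 96.0) and 95.4% (94.4 to 96.2) of all Hox counts in Hox-WT, and 96.7% (96.1 to 97.3), 97.5% (96.9 to 97.9) and 96.3% (95.5 to 97.0) in Hox-URE. In URE-AML it was 0 of 22, 37 and 34 Hox counts, which allows a share of up to 13.6%, 8.11% and 8.82% if 3 counts are taken as the limit of a count of 0 (14.9%, 9.41% and 10.2% by the Wilson interval). The intervals cover counting error only, and the shares are of counts not corrected for gene length.

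The Hoxa members were silent. *Hoxa9* (chromosome 6, 52223100 to 52231089, minus strand) and *Hoxa10* (52231197 to 52240854) had 0 counts in all 9 libraries. *Hoxa7* (52214491 to 52221854), which has also been linked to leukemia with rearranged *Kmt2a*, had 4 counts in Hox-WT library 1, or 0.150 CPM, and 0 in the others. No fold change can be given for these genes, and a level under the floor was not detectable. The Hoxa cluster (52155590 to 52260880) holds 31 rows of the table, 11 of them Hox genes. These rows had 5 counts in the 9 libraries together, 4 of *Hoxa7* and 1 of the antisense gene *Hoxaas3*.

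The Hoxb cluster (chromosome 11, 96194316 to 96368256) was the exception among the Hox clusters. Of the 39 Hox genes in the table, 33 had 0 counts in every library, *Hoxb6* and *Hoxb9* never exceeded 3, and the 18 genes of the Hoxc and Hoxd clusters had 0 counts in all. Over 3 counts in some library were *Hoxb8*, *Hoxb4*, *Hoxb3* and *Hoxa7*. The neighbors of *Hoxb8* were at the floor in the lines that expressed it: *Hoxb7* had 0 counts throughout, and *Hoxb9* had 2 in Hox-URE library 1 and 0 in the rest. None of the 9 noncoding RNA genes of the Hox loci in the list exceeded 1 count. The only other row of the Hoxa or Hoxb cluster with over 3 counts was *Gm11539*, a processed pseudogene in the Hoxb cluster, with 4 to 9 counts in every library.

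*Hoxb4*, a Hox gene known for expanding hematopoietic stem cells, was the one Hox gene besides *Hoxb8* that could be tested. Hox-WT had 3.11 ± 0.13 CPM (SD, n = 3), Hox-URE 3.95 ± 0.685 and URE-AML 1.12 ± 0.326. *Hoxb4* fell in URE-AML by 1.47 ± 0.28 on the log2 scale against Hox-WT (adjusted p = 0.00105) and by 1.81 ± 0.28 against Hox-URE (0.000285). Between the Hox lines the log2 difference was 0.34 ± 0.26 (0.289). With 20, 23 and 34 counts, *Hoxb4* held most of the Hox counts left in URE-AML. The rest were of *Hoxb3*, with 2, 14 and 0 counts, a range that overlapped both Hox-WT (0 to 3) and Hox-URE (5 to 11), and *Hoxb3* was too low to test. On 52.9% of its exons *Hoxb3* is overlapped by an antisense gene.

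**Figure D2:**
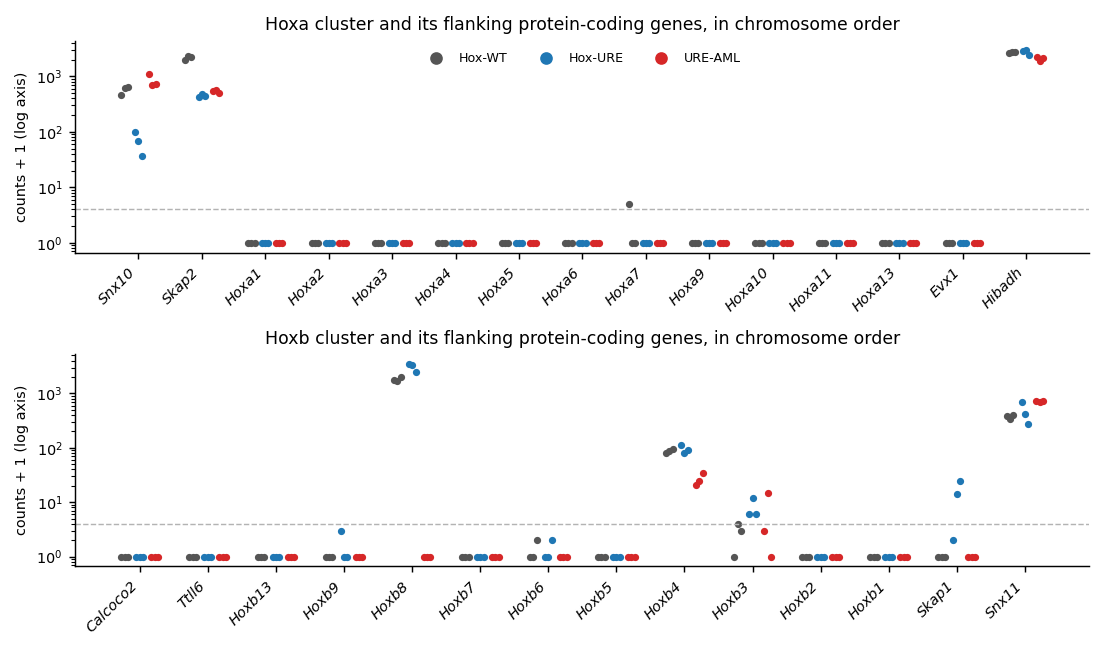
Counts plus 1 (log axis) of the genes of the Hoxa cluster (top) and Hoxb cluster (bottom) in chromosome order with the 2 nearest protein-coding genes on each side, 1 point per library; the dashed line is 3 counts. Within the clusters *Hoxb8* in the Hox lines has the highest counts, and *Hoxb4* is the only Hox gene over the line in all 9 libraries.

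*Meis1* (ENSMUSG00000020160, chromosome 11, 18879817 to 19018985, minus strand) encodes the TALE partner of Hox-Pbx complexes. The libraries of Hox-WT had 10.8, 9.11 and 11.7 CPM and those of Hox-URE 5.24, 8.12 and 13.0 CPM. The Hox lines overlapped, with the highest and the lowest value both in Hox-URE. The log2 difference between them was -0.27 ± 0.30 (SE, adjusted p = 0.486). This value rests on few libraries: it was -0.66 without Hox-URE library 3 and -0.01 without Hox-URE library 1, neither of which passed the test. In URE-AML *Meis1* had 0, 1 and 1 counts, against 255 to 337 in Hox-WT and 144 to 254 in Hox-URE. Against Hox-WT this was 363-fold lower (95% counting interval 100 to 3004, adjusted p = 9.51e-07), and against Hox-URE 288-fold lower (79.5 to 2386, 1.45e-06).

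The other Meis genes did not take its place in these counts. *Meis2* had 0 counts in all libraries, and *Meis3* had 3, 3 and 5 in the Hox-WT libraries, 0, 2 and 1 in those of Hox-URE and 0 in each of URE-AML.

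*Pbx4* (ENSMUSG00000031860, chromosome 8, 69832491 to 69872292, plus strand), a Pbx gene best known from testis, was low in the Hox lines. The Hox-WT libraries had 4.99, 7.50 and 4.57 CPM, and those of Hox-URE 0.546, 2.16 and 2.25. Every Hox-URE library was below every Hox-WT library. *Pbx4* fell by 1.80 ± 0.50 on the log2 scale in Hox-URE (SE, adjusted p = 0.0162). Without Hox-WT library 2 the change was -1.55 and no longer passed the test (0.0618). Each URE-AML library had 0 counts, at least 39.8-fold lower against Hox-WT (6.96e-05) and at least 11.6-fold lower against Hox-URE (0.000418).

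*Pbx2* (ENSMUSG00000034673, chromosome 17, 34591266 to 34597400, plus strand), a broadly expressed Pbx gene, was the member with the highest CPM in URE-AML. The Hox-WT libraries had 46.2, 48.3 and 48.1 CPM, those of Hox-URE 32.5, 33.5 and 36.3, and those of URE-AML 54.5, 48.2 and 54.8. Hox-URE lay below both other lines, which overlapped each other. *Pbx2* rose by 0.62 ± 0.09 on the log2 scale from Hox-URE to URE-AML (adjusted p = 0.000225), a 1.54-fold change just past the fold required. When the change itself was tested against 1.5-fold the adjusted p was 0.344. Between Hox-URE and Hox-WT the log2 difference was -0.48 ± 0.09 (0.00148), short of 1.5-fold, and it reached -0.59 and passed when only library size was used for scaling. Between URE-AML and Hox-WT it was 0.14 ± 0.09 (0.204). *Pbx2* shares 6.24% of its exons with *Gpsm3* on the same strand, which had 625 to 2346 counts.

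*Pbx3* (ENSMUSG00000038718, chromosome 2, 34171457 to 34373142, minus strand) went the other way. Levels were 27.4, 28.0 and 25.5 CPM for Hox-WT, 30.2, 34.8 and 33.9 for Hox-URE, and 14.2, 17.2 and 13.8 for URE-AML. The 3 lines did not overlap. *Pbx3* fell in URE-AML by 0.84 ± 0.12 on the log2 scale against Hox-WT (adjusted p = 0.000137) and by 1.13 ± 0.12 against Hox-URE (1.89e-05). In Hox-URE against Hox-WT the log2 difference was 0.29 ± 0.11 (0.0544), and with the replicate number as a block the adjusted p was 0.0327, still short of 1.5-fold.

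The balance of *Pbx3* to *Pbx2* was read within each library, where it does not depend on scaling between libraries. The log2 ratio of *Pbx3* to *Pbx2* counts was -0.754, -0.785 and -0.918 for Hox-WT, -0.109, 0.0543 and -0.0966 for Hox-URE, and -1.94, -1.49 and -1.99 for URE-AML. The means were -0.82 ± 0.09, -0.05 ± 0.09 and -1.81 ± 0.28 (SD, n = 3), with no overlap between lines. The difference was 0.77 for Hox-URE minus Hox-WT, -0.99 for URE-AML minus Hox-WT and -1.76 for URE-AML minus Hox-URE. Each difference had an exact two-sided permutation p of 0.1, the smallest that 3 libraries against 3 allow, so this test could not reach 0.05.

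*Pknox1* (ENSMUSG00000006705, chromosome 17, 31564734 to 31607693, plus strand), also called Prep1, encodes a TALE protein that competes with Meis for Pbx. Levels were 31.3, 30.3 and 33.0 CPM for Hox-WT, 40.1, 41.2 and 39.2 for Hox-URE, and 25.6, 22.7 and 13.9 for URE-AML. The lines did not overlap, and URE-AML library 3 was the lowest of all. *Pknox1* fell in URE-AML by 0.95 ± 0.19 on the log2 scale against Hox-URE (adjusted p = 0.00138) and by 0.61 ± 0.19 against Hox-WT (0.0173). The latter was 1.52-fold and depended on single libraries, at -0.38 without URE-AML library 3 and -0.58 without Hox-WT library 3, both under 1.5-fold. Between the Hox lines the difference was 0.35 ± 0.18 (0.135). The adjusted p was 0.0125 with only the 6 libraries compared and 0.0129 without URE-AML library 3, both still short of 1.5-fold.

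Over the 6 tested members, Hox-URE against Hox-WT had 1 called higher (*Hoxb8*) and 1 lower (*Pbx4*). A call required an adjusted p under 0.05 and more than 1.5-fold. Over all 13082 genes tested, 37.2% were called in this comparison, 21.3% higher and 15.9% lower, so that the share of members called was close to the background. In URE-AML against Hox-WT 5 members were called, all lower, and none was higher even at an unadjusted p under 0.05 or by DESeq2. The background was 43.2%, with 23.0% higher and 20.2% lower. From Hox-URE to URE-AML, all 6 tested members were called, 1 higher (*Pbx2*) and 5 lower, against 42.7% of all genes, with 20.3% higher and 22.4% lower. Among the tested members the median log2 fold change was 0.01, -3.08 and -2.33 in the 3 comparisons in this order, with genes at 0 set at their bound, and that of all tested genes was 0.00 in each. In both URE-AML comparisons the median of the members fell between *Pbx4* at its bound and *Pbx3* (-0.84 and -1.13), so it describes no single member. The 3 comparisons share libraries, and the members that passed the filter did so partly through the line in which they were high, so these counts are a description.

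**Figure D3:**
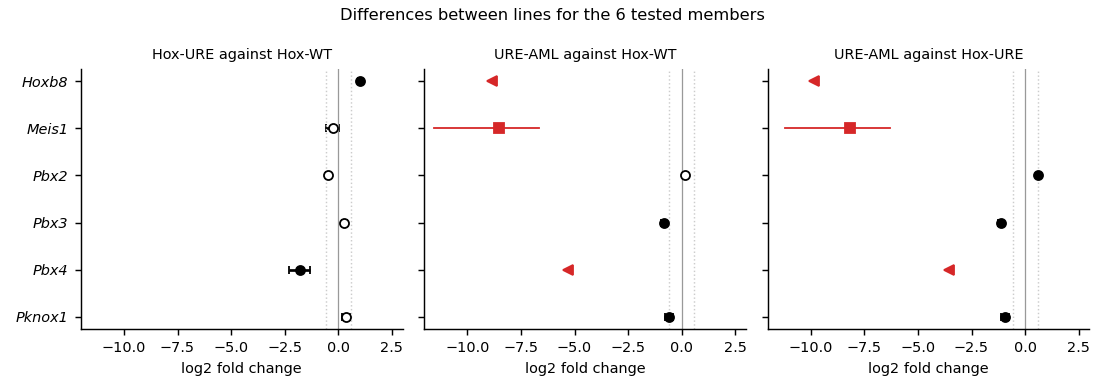
Log2 fold changes of the 6 tested members in the 3 comparisons; circles are fitted changes with SE (filled if called), triangles are bounds for genes with no counts in URE-AML, and squares are ratios of summed counts with 95% counting intervals, with dotted lines at 1.5-fold. In Hox-URE against Hox-WT *Hoxb8* is called higher and *Pbx4* lower, and in both URE-AML comparisons *Hoxb8*, *Meis1* and *Pbx4* lie farthest to the left.

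Levels can be compared between genes only per length, here as CPM per kilobase of the exons of all transcripts. In Hox-WT the order was *Hoxb8* at 25.0, *Pbx2* at 13.1 ± 0.318 (SD, n = 3), *Pknox1* at 4.55 ± 0.195, *Pbx3* at 4.41 ± 0.22, *Pbx4* at 2.56 ± 0.716 and *Meis1* at 0.998 ± 0.123. *Pknox1* and *Pbx3* differed by less than their SD. In Hox-URE the order was *Hoxb8* at 50.1, *Pbx2* at 9.37, *Pknox1* at 5.79, *Pbx3* at 5.39, *Meis1* at 0.834 ± 0.371 and *Pbx4* at 0.744 ± 0.432, the last pair again within their SD. In URE-AML *Pbx2* stood at 14.4 ± 1.03, *Pknox1* at 2.99 ± 0.883, *Pbx3* at 2.47 ± 0.300, *Meis1* at 0.00286, and *Hoxb8* and *Pbx4* at 0. The order depends on the length used. For *Hoxb8* that length is of the gene at its own locus, and the introduced fusion may differ from it in length. Per kilobase of the longest transcript *Pbx3* was above *Pknox1* in each line, at 9.44 against 7.42 in Hox-WT, 11.5 against 9.45 in Hox-URE and 5.27 against 4.88 in URE-AML. In Hox-URE *Pbx3* was then also above *Pbx2* (11.1), as was *Tgif1* (12.7).

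**Figure D4:**
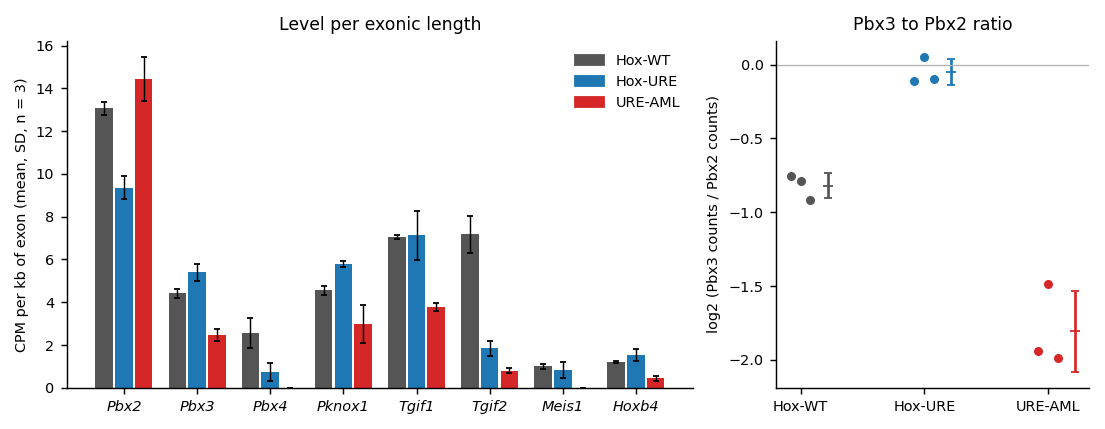
Left, mean level per exonic length (CPM per kb, SD, n = 3) of TALE genes and *Hoxb4* in the 3 lines; right, the log2 ratio of *Pbx3* to *Pbx2* counts in each library with the mean and SD of the line beside it. By this length *Pbx2* is the highest of the TALE genes drawn in each line, *Pbx4* and *Meis1* have no visible bar in URE-AML, and the ratio is lowest in URE-AML and highest in Hox-URE.

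Of 6 further TALE genes, 3 were tested. *Tgif1* and *Tgif2* encode TALE repressors that act in TGF-β and retinoid signaling. *Tgif2* fell in both lines with the deletion, with 27.5 ± 3.32 CPM for Hox-WT, 7.06 ± 1.32 for Hox-URE and 3.08 ± 0.396 for URE-AML (SD, n = 3). Its log2 change was -1.96 ± 0.17 from Hox-WT to Hox-URE (adjusted p = 7.58e-06), -3.16 ± 0.18 from Hox-WT to URE-AML (2.30e-07) and -1.20 ± 0.18 from Hox-URE to URE-AML (0.000248). A gene on the opposite strand covers 56.7% of the exons of *Tgif2*. *Tgif1* had 39.6 ± 0.463 CPM for Hox-WT, 40.1 ± 6.43 for Hox-URE and 21.2 ± 0.98 for URE-AML, in which it fell by 0.90 ± 0.12 on the log2 scale against Hox-WT (0.000102) and by 0.92 ± 0.12 against Hox-URE (9.56e-05). *Pknox2*, the paralog of *Pknox1*, rose in URE-AML against Hox-WT. It had 11, 15 and 14 counts there and 0 in Hox-WT, at least 5.21-fold higher (0.00537), and 0, 7 and 0 in Hox-URE (log2 difference 2.51 ± 0.97, 0.0542).

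Of 14 genes that control Hox loci or Pbx proteins 11 were tested, and *Cdx1*, *Cdx2* and *Cdx4* were at 0 in every library. From Hox-WT to Hox-URE 0 were called higher and 2 lower, from Hox-WT to URE-AML 1 and 2, and from Hox-URE to URE-AML 0 and 2. Over all genes tested 37.2%, 43.2% and 42.7% were called in these comparisons. Their median log2 fold changes were -0.16, -0.21 and 0.13. For the comparisons with 0 called higher, 1 gene each was higher at an unadjusted p under 0.05. From Hox-WT to Hox-URE it was *Pbxip1* (log2 difference 0.65 ± 0.27, SE, adjusted p = 0.0658, edgeR). From Hox-URE to URE-AML it was *Dot1l* (0.45 ± 0.10, 0.00297), which was short only of 1.5-fold. *Kmt2a*, the histone methyltransferase that keeps Hox genes active, stood at 23.6 ± 2.96 CPM for Hox-WT, 24.1 ± 3.93 for Hox-URE and 12.8 ± 2.06 for URE-AML (SD, n = 3). It fell in URE-AML by 0.89 ± 0.17 on the log2 scale against Hox-WT (adjusted p = 0.00102) and by 0.92 ± 0.17 against Hox-URE (0.000839). *Mllt3*, a frequent fusion partner of *Kmt2a* in leukemia, went from 81.3 ± 13.3 to 49.7 ± 15.0 and 13.6 ± 2.07 CPM, with log2 changes against Hox-WT of -0.71 ± 0.22 (Hox-URE, 0.0209) and -2.58 ± 0.24 (URE-AML, 7.58e-06). *Mllt10*, a cofactor of the methyltransferase Dot1l, fell by 0.59 ± 0.18 in Hox-URE (0.0210). *Pbxip1*, whose product binds Pbx and keeps it from DNA, rose by 0.88 ± 0.27 in URE-AML against Hox-WT (0.0175).

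A further list held 16 genes described as targets of Hoxa9 or Meis1. Of 15 tested, 3 were called higher and 8 lower from Hox-WT to Hox-URE, where the median log2 fold change was -0.63. From Hox-WT to URE-AML 1 was higher and 11 were lower (median -1.59), and from Hox-URE to URE-AML 0 were higher and 9 lower (median -1.38), with 0 higher at an unadjusted p under 0.05. Over all genes the shares were 21.3% higher and 15.9% lower, 23.0% and 20.2%, and 20.3% and 22.4%, and the medians 0.00. This list and the list before it were chosen with earlier results of these data known, so their counts are a description. *Hoxa9* had 0 counts in every line, and *Eya1* passed the filter only through Hox-URE. Whether the listed genes follow Hoxa9 or Meis1 was not tested. Many of these genes also mark progenitors at large, and *Cd34* is among the markers above. *Sox4*, an HMG box factor of progenitors, had 127 ± 9.74 CPM for Hox-WT, 46.9 ± 7.98 for Hox-URE and 8.92 ± 3.04 for URE-AML (SD, n = 3). Its log2 changes were -1.43 ± 0.20, -3.82 ± 0.23 and -2.39 ± 0.22 in the 3 comparisons, all called. *Trib2*, a pseudokinase that promotes degradation of C/EBPα, had 35.6 ± 2.54, 18.3 ± 1.17 and 0.185 ± 0.182 CPM in the same order.

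*Lmo2*, a bridging protein of stem cell transcription complexes, was at 276 ± 36.1 and 229 ± 38.2 CPM in the Hox lines (log2 difference -0.27 ± 0.14, adjusted p = 0.142) and at 91.6 ± 9.66 in URE-AML, where it fell by 1.59 ± 0.15 against Hox-WT (7.33e-06). *Flt3*, a receptor kinase of early progenitors, fell by 2.92 ± 0.19 on the log2 scale in Hox-URE (5.60e-06) and had 0 counts in URE-AML, at least 758-fold lower against Hox-WT (4.23e-08). *Msi2*, an RNA-binding protein of stem cells, was highest in Hox-URE at 56.9 ± 1.85 CPM, against 19.6 ± 0.702 in Hox-WT and 7.73 ± 2.42 in URE-AML. *Eya1*, a transcriptional coactivator, had 0 counts in Hox-WT and in URE-AML and 7.45 ± 1.65 CPM in Hox-URE, at least 66.2-fold higher than in Hox-WT (3.77e-05). *Myb*, a transcription factor that progenitors need, fell to a similar level in Hox-URE (167 ± 14.9 CPM) and URE-AML (177 ± 17.4 CPM) from 299 ± 25.3 in Hox-WT, and the log2 difference between the former was 0.08 ± 0.11 (0.546). *Cdk6* and *Camk2d* were called in none of the comparisons, with 272 ± 41.4, 319 ± 72.7 and 243 ± 30.3 CPM for *Cdk6*.

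**Figure D5:**
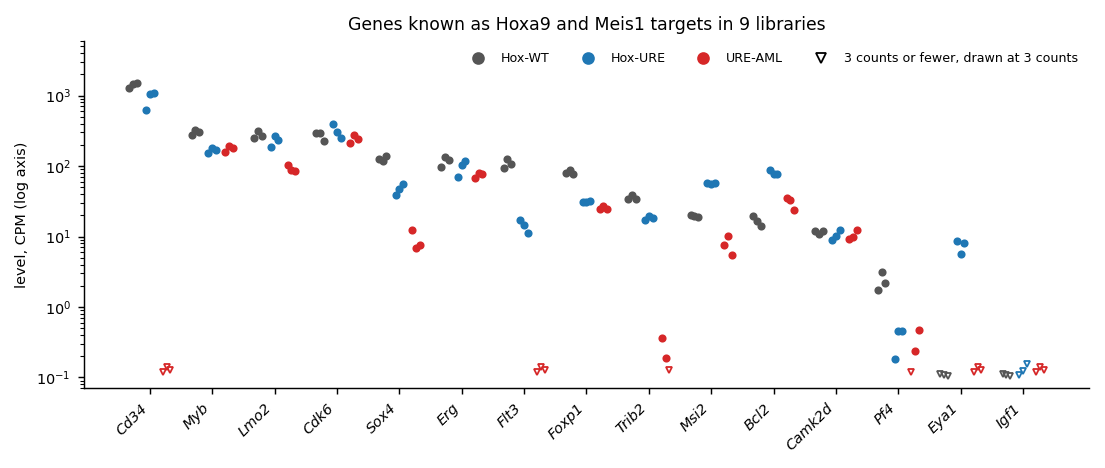
Levels of 15 of the 16 genes described as targets of Hoxa9 or Meis1 in each library, in CPM on a log axis, with libraries of 3 counts or fewer drawn as open triangles at that floor. *Cd34*, *Flt3* and *Eya1* are at the floor in all URE-AML libraries, *Cdk6* and *Camk2d* lie at similar levels in the 3 lines, and *Msi2*, *Bcl2* and *Eya1* are highest in Hox-URE.

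The genes whose pattern over the 9 libraries was most like that of a member were found by Pearson's r of log2(CPM + 1). Since the libraries form 3 groups, a high r says little more than that the 3 line means fall alike. For *Hoxb8* they were *Adgra3*, *Arhgap6* and *Gm12454* (r = 0.999 each). *Adgra3*, an adhesion receptor gene, had mean levels of 62.1 CPM for Hox-WT, 121 for Hox-URE and 0 for URE-AML, close to those of *Hoxb8* (65.8, 132 and 0). For *Meis1* they were *Sapcd2* (0.997), *Acot3* (0.995) and *2610044O15Rik8* (0.994), of which *Acot3*, an acyl-CoA thioesterase gene, was also nearly absent from URE-AML (38.3, 33.8 and 0.0293 CPM). For *Pbx3* they were *Zfp398* (0.995), *Pabpc1* (0.993) and *Rnf13* (0.991).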

How the data were processed

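Stranded poly-A libraries of 3 cell lines were sequenced, with 3 libraries for each line. The authors quantified transcripts with salmon and collapsed them by gene through tximport. The values they deposited are estimated counts per gene in whole numbers, unscaled. The build is GRCm38 per the labels. The transcriptome release and any scaling of counts for transcript length are not given in the sources used here, so a change of isoform may alter a count. Exon lengths, overlaps and positions were taken from GENCODE M21 (54094 of 54347 identifiers found), and promoters from RefSeq on GRCm38.p6. Whether counting used strand is not given in the sources used here, so that overlapping antisense genes are uncertain.

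Lines and library numbers follow the sample labels. All 9 libraries were fitted in one edgeR 4.0.16 quasi-likelihood model in R 4.3.3 with line as the factor, TMM scaling and filterByExpr (minimum count 10), which kept 13082 genes and put aside 0.0499% of counts. Tests were two-sided with Benjamini-Hochberg adjustment over these genes. Calls required an adjusted p under 0.05 and a change of more than 1.5-fold. An SE is the absolute log2 fold change over the square root of F. Folds against libraries at 0 were computed from 3 counts per library and are bounds, and those against 1 to 3 counts in sum are ratios with exact intervals. The code was tested on simulated data. Figures were drawn with matplotlib 3.10.9.

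The members and gene lists were chosen with earlier results of these data known. Named were the 9 members, *Spi1*, other Hox and TALE genes and noncoding genes of Hox loci over 3 counts in some library, genes of the regulator and target lists that were called, the 2 protein-coding genes on each side of the Hoxa and Hoxb clusters, and the 3 genes most like *Hoxb8*, *Meis1* and *Pbx3*. Genes named outside this rule were chosen after their values were seen: *Meis2*, *Hoxb6*, *Hoxb7*, *Hoxb9*, *Hoxaas3*, *Gm11539*, *Gpsm3*, the Cdx genes, *Cdk6* and *Camk2d*, and the cell type markers *Cd3e*, *Cd3g* and *Cpa3*. *Dot1l* and the markers *Mpo*, *Elane* and *Ctsg* were also named in this way. Some genes of the lists are counted but not reported here.

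Same-numbered libraries of Hox-URE and Hox-WT deviated from their line means together (r across genes 0.393, 0.216 and 0.294), a pairing read from the data since the labels name no shared culture. With URE-AML r was 0.0583 to 0.188 and not over 0.1 in every pair. Even so, each URE-AML library had its highest r with the same-numbered library of either Hox line, as did Hox-URE with Hox-WT. Alternatives were RLE and library size scaling, no filter or a minimum of 10 counts in every library, only the 6 libraries compared, DESeq2 1.42.0, the replicate number as a block, glmTreat, no fold threshold, the longest transcript as length and leaving out each library.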

Additional observations from a re-analysis of the deposited data

How the results depend on the processing

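Each line is a single line, so genotype, leukemic stage and the history of the line cannot be told apart, and at 20331064 counts or more per library a level under 0.104 to 0.153 CPM was not detectable. No member changed its direction under the alternatives run. A minimum of 10 counts in every library left out *Hoxb8*, *Meis1* and *Pbx4* by its construction, and the number of members called was then 0 for Hox-URE against Hox-WT, 2 for URE-AML against Hox-WT and 3 for URE-AML against Hox-URE, against 2, 5 and 6 as reported. It was 3 for Hox-URE against Hox-WT with library size scaling (5047 of all genes) or no fold threshold (6936 of all genes), and 4 and 5 for the URE-AML comparisons under glmTreat (4287 and 4179 of all genes). Over all genes the minimum of 10 counts in every library gave 3200, 3602 and 3553 calls in place of 4873, 5648 and 5591. Leaving out each library in turn gave 1 to 2, 4 to 5 and 6 (in every case) members called, and 4687 to 5235, 5539 to 5945 and 5478 to 5873 genes. The log2 differences of the *Pbx3* to *Pbx2* ratio ranged from 0.72 to 0.80, from -1.14 to -0.89 and from -1.91 to -1.66. With the replicate number as a block, 2, 5 and 6 members and 4908, 5679 and 5584 genes were called, and the block changed no call of a member. Scaling by library size alone moved the median log2 fold change of all genes to -0.08, 0.01 and 0.11, and the split of calls in Hox-URE against Hox-WT from 2789 higher and 2084 lower to 2502 and 2545, and from Hox-URE to URE-AML from 2662 and 2929 to 3166 and 2605. By that scaling *Pbx2* passed in Hox-URE against Hox-WT (-0.59), as it did with no fold threshold. Under glmTreat *Pbx2* in URE-AML against Hox-URE (adjusted p = 0.344) and *Pknox1* in URE-AML against Hox-WT (0.482) did not pass. With the longest transcript as length, 11 of 18 places in the order of members kept their rank. The ratio of *Pbx3* to *Pbx2* per kilobase moves every library by the same amount.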

Other observations

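Of the 8 protein-coding genes next to the Hoxa and Hoxb clusters, 4 had counts in all 3 lines. Beside the Hoxa cluster, *Skap2*, an adaptor protein of myeloid adhesion signaling, fell, at 77.3 ± 3.67 CPM for Hox-WT, 19.0 ± 3.43 for Hox-URE and 23.5 ± 3.23 for URE-AML (SD, n = 3), with log2 changes of -2.03 ± 0.15 (adjusted p = 2.43e-06, edgeR) and -1.72 ± 0.15 (4.30e-06). *Snx10*, a sorting nexin of the endosome, was at 20.7 ± 2.80, 2.72 ± 0.848 and 36.0 ± 7.54 CPM, with log2 changes against Hox-WT of -2.91 ± 0.24 for Hox-URE (5.32e-06) and 0.80 ± 0.21 for URE-AML (0.00753). On the other side *Evx1* was at 0 throughout, and *Hibadh*, an enzyme of valine breakdown, was called in none of the comparisons.

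Beside the Hoxb cluster, *Snx11* had 13.4 ± 1.00 CPM for Hox-WT, 19.0 ± 6.01 for Hox-URE and 31.0 ± 1.88 for URE-AML (SD, n = 3), and rose in URE-AML against Hox-WT by 1.20 ± 0.19 on the log2 scale (adjusted p = 0.000395, edgeR). *Skap1* had 1 to 23 counts in Hox-URE and 0 in the other lines. *Calcoco2* and *Ttll6* were at 0 in all libraries.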
